A study of Arabidopsis thaliana with 12 samples.

Results

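The cuticular wax and cutin genes described here are 10 loci of the Arabidopsis thaliana genome, picked by locus identifier out of 38088 loci measured. They are KCS1 (AT1G01120), KCS2 (AT1G04220), CER6 (AT1G68530), CER1 (AT1G02205), CER3 (AT5G57800), CER4 (AT4G33790), WSD1 (AT5G37300), MYB94 (AT3G47600), MYB96 (AT5G62470) and CDEF1 (AT4G30140). Of the 10, 8 reached the mean of 1 FPKM over all libraries that was required for a test, and CER4 and WSD1 did not. FPKM divides the sequenced fragments of a gene by its transcript length and by the size of the library, so levels can be set side by side between genes.

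The cuticle is the lipid skin of the shoot epidermis. Its wax is built from very-long-chain fatty acids, which the elongase enzymes lengthen step by step and which are then turned into alkanes, alcohols or esters. Its cutin is a polyester of shorter hydroxylated fatty acids that esterases can open. In leaves, drought and abscisic acid (ABA) are known to switch on wax genes through the MYB94 and MYB96 transcription factors.

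The study sequenced mRNA of whole 5-day-old seedlings in 4 groups of 3 libraries, 12 in all. The groups were dcp5-1 after 60 min in 150 mM NaCl, dcp5-1 at 0 min, Col-0 after 60 min in 150 mM NaCl and Col-0 at 0 min. Col-0 is the wild type, and dcp5-1 is a mutant line of DCP5, which encodes a partner of the mRNA decapping complex. Seeds of both genotypes had spent 3 days at 4 °C, seedlings grew on MS agar at 22 °C with 16 h of light and 8 h of dark, and all rested for 30 min in liquid MS medium before the salt. Since no sample was labelled as 60 min without NaCl, what is called the salt response also holds 60 min more in liquid medium. Whether the replicates were grown separately is not in the labels, and a p-value here measures the spread among libraries that may be technical replicates.

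DCP5 and the stress gene RD29A followed the labels in every library. DCP5 ran from 20.3 to 20.7 FPKM in dcp5-1 and from 76.6 to 84.9 FPKM in Col-0 at 60 min, and from 13.0 to 13.2 FPKM in dcp5-1 and from 48.5 to 52.1 FPKM in Col-0 at 0 min. RD29A, a classic marker of salt and drought, ran from 254 to 274 FPKM at 60 min and from 9.66 to 10.6 FPKM at 0 min in dcp5-1, and from 367 to 384 FPKM at 60 min and from 10.09 to 13.6 FPKM at 0 min in Col-0. All 15 listed markers of epidermis, mesophyll, guard cells, root hairs and root endodermis were above 0 in all libraries. Fragment numbers recovered from the FPKM steps put the libraries on a scale of 14680000 to 20940000 fragments. The scale was lowest in Col-0 at 0 min, higher in dcp5-1 at 0 min and highest at 60 min in both genotypes. These ranges did not overlap, so the library size that FPKM divides by went with the groups. Its part in the differences was not tested apart from the other scalings described below. Each library had 23810 to 24223 loci above 0.

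The 250 bases before the annotated start of each gene were searched for 3 short motifs linked to ABA, the epidermis and MYB factors. They are the core of the ABA-responsive element (ACGTG), the L1 box found in epidermal promoters (TAAATGCA or TAAATGTA) and a MYB site (TAACTA or TAACNG), on both strands. The promoters shown were picked as those of the most abundant member, the alkane gene with the steepest salt response, the gene that differed most between genotypes, and the pair of regulators. Each was read from the RefSeq TAIR10.1 genome, 5′ to 3′ on the strand of the gene, with motif matches in capitals. The CER6 window is chr1:25715025-25715274 (minus strand), CER1 is chr1:418166-418415 (plus strand), MYB94 is chr3:17541308-17541557 (minus strand), MYB96 is chr5:25081142-25081391 (minus strand) and CDEF1 is chr4:14740743-14740992 (minus strand).
CER6: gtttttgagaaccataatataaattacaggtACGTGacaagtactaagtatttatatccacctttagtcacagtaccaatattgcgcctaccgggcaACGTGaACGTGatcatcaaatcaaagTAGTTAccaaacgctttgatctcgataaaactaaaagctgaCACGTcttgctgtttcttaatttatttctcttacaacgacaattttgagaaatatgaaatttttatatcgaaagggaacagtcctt
CER1: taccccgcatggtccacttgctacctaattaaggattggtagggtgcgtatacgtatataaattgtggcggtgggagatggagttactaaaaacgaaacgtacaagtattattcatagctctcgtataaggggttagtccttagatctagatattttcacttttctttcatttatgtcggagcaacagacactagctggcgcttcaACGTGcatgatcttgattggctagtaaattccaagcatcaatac
MYB94: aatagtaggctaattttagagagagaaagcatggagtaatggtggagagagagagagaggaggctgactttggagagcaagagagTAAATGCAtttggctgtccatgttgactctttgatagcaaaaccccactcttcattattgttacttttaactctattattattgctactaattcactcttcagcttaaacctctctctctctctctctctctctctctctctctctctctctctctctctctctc
MYB96: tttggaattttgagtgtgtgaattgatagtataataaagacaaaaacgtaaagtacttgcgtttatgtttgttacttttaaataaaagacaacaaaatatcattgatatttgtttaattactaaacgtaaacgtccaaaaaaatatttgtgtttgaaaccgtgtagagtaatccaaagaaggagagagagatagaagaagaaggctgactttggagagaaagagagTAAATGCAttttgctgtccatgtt
CDEF1: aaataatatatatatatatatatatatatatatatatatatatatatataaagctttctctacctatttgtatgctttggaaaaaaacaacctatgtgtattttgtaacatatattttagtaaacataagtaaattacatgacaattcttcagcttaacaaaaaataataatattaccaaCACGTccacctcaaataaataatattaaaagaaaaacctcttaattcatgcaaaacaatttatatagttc

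CER6 held 4 ABRE cores, of which 3 lay on the strand of the gene at 219, 153 and 147 bases before the start and 1 on the other strand at 86 bases, plus 1 MYB site at 127 bases. At least 4 ABRE cores stood in 368 of 27431 nuclear promoters of the same length (1.34%). That cutoff was taken from CER6, the highest count of the 10 windows, and was not set beforehand. CER1 held 1 ABRE core at 44 bases and CDEF1 held 1 at 70 bases, and CER4 had 1 as well. At least 1 ABRE core was found in 22.9% of all promoters. KCS2 and CER3 shared with CER6 the presence of a MYB site, which 41.8% of promoters hold. MYB94 and MYB96 each carried the L1 box TAAATGCA, at 165 and 24 bases before the start, and were the only 2 of the 10 to do so, against 4.49% of all promoters. The box lay in a run of 65 bases in which the MYB94 and MYB96 windows had 58 identical bases. KCS1 and WSD1 had no match to any of the 3 motifs. A match is a description of the letters, and binding was not measured here.

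**Figure D1:**
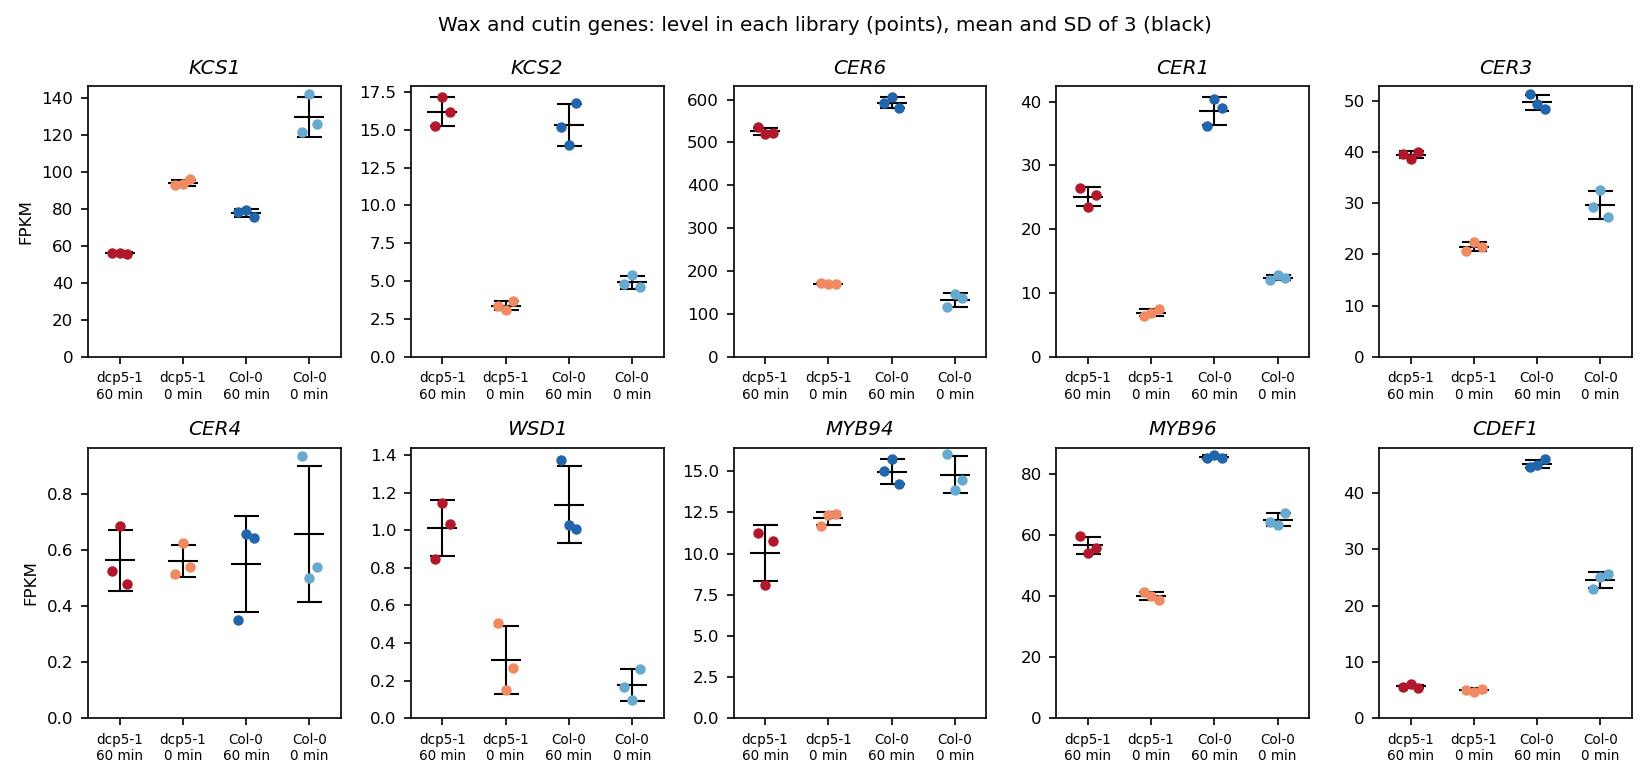
FPKM of the 10 wax and cutin genes in each of the 12 libraries (points), with the mean and SD of 3 libraries in black, by genotype and minutes in 150 mM NaCl, each panel on its own linear axis from 0. KCS2, CER6, CER1, CER3 and WSD1 stood higher at 60 min than at 0 min in both genotypes, KCS1 stood lower, and the 6 CDEF1 values of dcp5-1 all lay far below the 6 of Col-0.

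After 60 min of salt CER6, KCS2, CER1, CER3, MYB96 and CDEF1 were higher than at 0 min in both genotypes, and KCS1 was lower in both. In dcp5-1, 6 of the 8 tested members were higher and 2 were lower at 60 min than at 0 min. There 66.7% of the 19876 loci tested were called in either direction, 35.1% higher and 31.6% lower. Of the 6 higher, CDEF1 lost its call in 11 of 20 alternatives. The count of 2 lower became 1, with MYB94 not called, without a minimum level, with only the compared libraries, and without replicate 2 of dcp5-1 at 60 min or replicate 2 or 3 of dcp5-1 at 0 min. In Col-0, 6 were higher, 1 was lower and MYB94 was not called, where 72.0% of loci were called, 36.3% higher and 35.7% lower. With most loci called, the number of members called says little by itself. The median log2 difference of the 8 was 0.67 in dcp5-1 and 0.79 in Col-0, beside 0.02 and 0.01 over all loci tested. None of the 8 was tested thanks to 1 group alone, since the lowest group mean among them was 3.38 FPKM, for KCS2 in dcp5-1 at 0 min. All differences are on the log2(FPKM + 1) scale, which understates those of genes with low values, and were called at an adjusted p of 0.05 with limma.

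Most members were lower in dcp5-1 than in Col-0, CDEF1 by far the most. At 60 min no member was higher and 6 were lower in dcp5-1 than in Col-0, with 54.5% of loci called, 27.1% higher and 27.4% lower. At 0 min 1 was higher (CER6) and 7 were lower in dcp5-1, with 46.9% of loci called, 18.8% higher and 28.1% lower. The count of 7 lower held in 5 of 20 alternatives and was 6 in the other 15, where MYB94 was not called. The medians were -0.51 at 60 min and -0.45 at 0 min, beside -0.01 and -0.05 over all loci. The genotype differences at the 2 times come from different libraries, but each shares its libraries with the salt comparisons. The p-values of all comparisons also rest on the same estimate of spread for a gene, taken over all libraries. These are whole seedlings, so fewer epidermal cells and less transcript per cell cannot be told apart. The salt response itself differed between dcp5-1 and Col-0 for 3 of the 8 members, with 24.4% of loci called. The response in dcp5-1 minus that in Col-0 was positive for KCS2 (16.3% of loci) and negative for CER6 and CDEF1 (8.06% of loci). A positive difference also covers loci that fell less in dcp5-1.

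**Figure D2:**
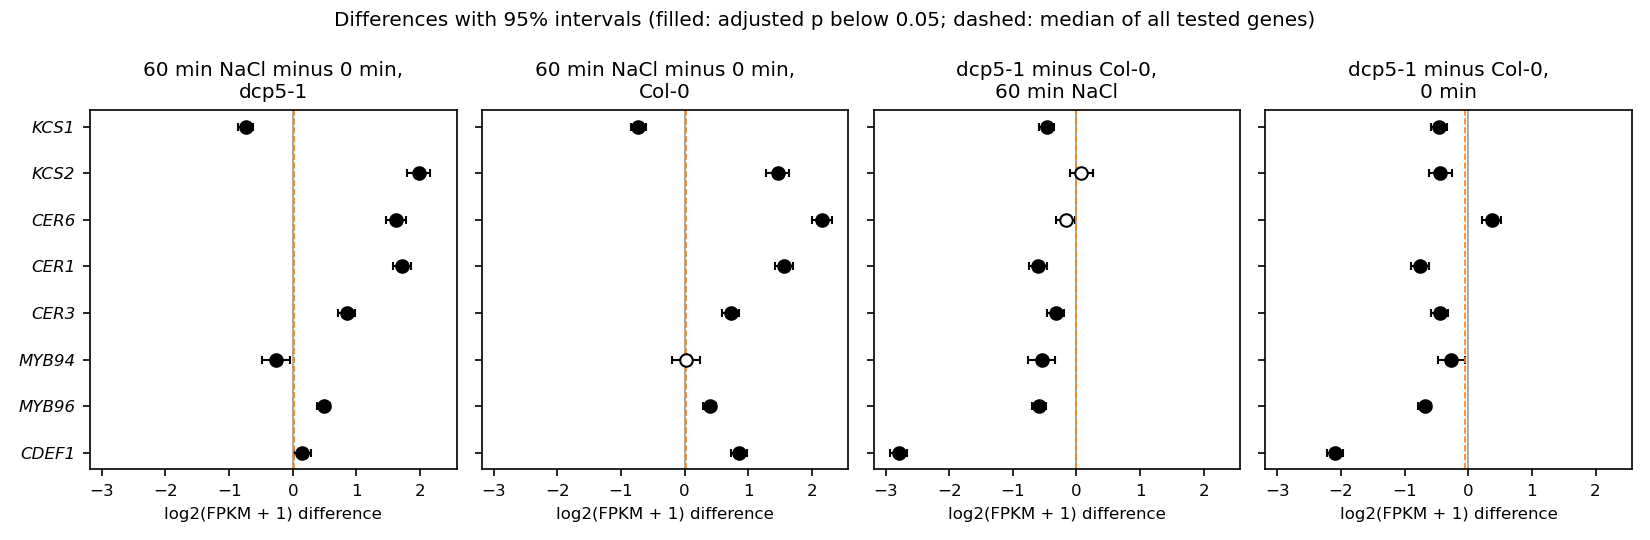
Differences in log2(FPKM + 1) of the 8 tested members with 95% intervals from the limma fit, filled where the adjusted p is below 0.05, in 4 comparisons; the dashed line marks the median of all 19876 loci tested. KCS2, CER6 and CER1 stand between 1.46 and 2.15 in the salt panels, KCS1 near -0.73, and CDEF1 at -2.79 and -2.09 in the genotype panels.

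The first group of members elongates fatty acids. CER6 encodes the condensing enzyme that makes most of the long chains for shoot wax, and its mean was the highest of the members in all 4 groups. CER6 had 535, 520.3 and 523 FPKM in dcp5-1 at 60 min and 173, 169 and 170.3 FPKM in dcp5-1 at 0 min. In Col-0 it had 591, 607 and 580.5 FPKM at 60 min and 116, 147 and 137 FPKM at 0 min. All salt-treated libraries lay far above all untreated ones, and within each time dcp5-1 and Col-0 libraries did not overlap either. The log2 difference with salt was 1.62 in dcp5-1 (SE 0.071, limma adjusted p = 3.28e-09) and 2.15 in Col-0 (SE 0.071, limma adjusted p = 2.67e-10).

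Before salt CER6 was higher in dcp5-1, with a mean of 171 ± 1.85 FPKM against 133 ± 15.8 FPKM in Col-0 (SD, n = 3 each; log2 difference 0.37, limma adjusted p = 0.00148). After salt it stood at 526 ± 8.09 FPKM in dcp5-1 and 593 ± 13.5 FPKM in Col-0 (SD, n = 3 each), a log2 difference of -0.17 that was not called (95% interval -0.33 to -0.01, limma adjusted p = 0.0611). That difference was called in 5 of 20 alternatives. Quantile normalization gave -0.35 (limma adjusted p = 6.35e-05) and median ratio scaling gave -0.18 (limma adjusted p = 0.0463). At an unchanged -0.17, it was also called when only the compared libraries were fitted (limma adjusted p = 0.00591). Leaving out replicate 1 or 2 of Col-0 at 0 min, outside this comparison, did the same (limma adjusted p = 0.00414 and 0.019). The remaining 15 gave no call, among them removal of the transcript length trend (-0.11, limma adjusted p = 0.241). The salt response of CER6 was smaller in dcp5-1 than in Col-0 (difference of responses -0.54, SE 0.101, limma adjusted p = 0.00373).

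KCS2 encodes a related condensing enzyme known from root suberin, and it showed the steepest rise of the members in dcp5-1. It had 15.3, 17.2 and 16.1 FPKM in dcp5-1 at 60 min and 3.38, 3.06 and 3.68 FPKM in dcp5-1 at 0 min. In Col-0 KCS2 had 15.2, 13.99 and 16.8 FPKM at 60 min and 4.78, 5.41 and 4.59 FPKM at 0 min. The genotypes overlapped at 60 min, while at 0 min each dcp5-1 library was below each Col-0 library. KCS2 rose by 1.98 log2 units in dcp5-1 (SE 0.082, limma adjusted p = 1.94e-09) and by 1.46 in Col-0 (SE 0.082, limma adjusted p = 1.8e-08). The response was larger in dcp5-1 by 0.52 log2 units (SE 0.116, limma adjusted p = 0.00894), the reverse of CER6. At 0 min the level in dcp5-1 was 68.5% of that in Col-0 (log2 difference -0.44, limma adjusted p = 0.0011), and at 60 min the difference was 0.08 (95% interval -0.10 to 0.26, limma adjusted p = 0.444).

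A long non-coding RNA, AT1G04247, runs against KCS2 on the other strand and shares 2302 bases of chromosome 1 with it. AT1G04247 had 46.6, 47.2 and 46.6 FPKM in dcp5-1 at 60 min, 7.57, 7.05 and 7.16 FPKM in dcp5-1 at 0 min, 45.4, 43.7 and 45.2 FPKM in Col-0 at 60 min, and 8.76, 6.10 and 7.52 FPKM in Col-0 at 0 min. Its libraries at 60 min were far above those at 0 min in both genotypes, as for KCS2, while at 0 min dcp5-1 and Col-0 overlapped, unlike KCS2. Whether fragments were assigned by strand is not stated in the sources used here, so the share of each transcript in the KCS2 value cannot be told apart. KCS20, the nearest look-alike of KCS2, is 86.7% identical over 812 bases, and fragments could also be split between those genes. The log2 difference of KCS20 with salt was -0.38 in dcp5-1 and -0.36 in Col-0. Its level in dcp5-1 was 70.6% of that in Col-0 at 60 min and 72% at 0 min. The part of KCS20 in the KCS2 values was not tested.

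KCS1, another condensing enzyme of early elongation steps, went the other way. KCS1 had 56.5, 56.2 and 55.4 FPKM in dcp5-1 at 60 min and 93.0, 93.4 and 96.2 FPKM in dcp5-1 at 0 min. It had 78.6, 79.8 and 75.5 FPKM in Col-0 at 60 min and 122, 142 and 126 FPKM in Col-0 at 0 min. The 4 groups did not overlap, and salt-treated dcp5-1 was lowest. Salt lowered KCS1 to 59.5% of the untreated level in dcp5-1 (log2 difference -0.74, limma adjusted p = 2.72e-07) and to 59.9% in Col-0 (-0.73, limma adjusted p = 2.32e-07). With quantile normalization the Col-0 value was -0.29 (limma adjusted p = 7.4e-06). KCS1 in dcp5-1 stood at 71.9% of Col-0 at 60 min (limma adjusted p = 3.33e-05) and at 72.5% at 0 min (limma adjusted p = 4.91e-05). The difference of its salt responses was -0.01 (95% interval -0.18 to 0.16, limma adjusted p = 0.936), which was called with quantile normalization (-0.26, limma adjusted p = 0.00282).

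CER1 and CER3 encode the partners that turn long-chain acyl groups into alkanes, the main wax of leaves and stems. CER1 had 26.4, 23.5 and 25.4 FPKM in dcp5-1 at 60 min and 6.43, 6.82 and 7.50 FPKM in dcp5-1 at 0 min. CER1 values of Col-0 were 36.2, 40.5 and 39.0 FPKM at 60 min and 12.0, 12.8 and 12.4 FPKM at 0 min. Both salt and Col-0 went with higher levels, in every library. CER1 rose by 1.72 log2 units in dcp5-1 (SE 0.065, limma adjusted p = 9.2e-10) and by 1.56 in Col-0 (SE 0.065, limma adjusted p = 1.63e-09). Its level in dcp5-1 was 65.1% of that in Col-0 at 60 min (log2 difference -0.60, limma adjusted p = 1.89e-05) and 55.7% at 0 min (-0.76, limma adjusted p = 3.82e-06).

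CER3 followed CER1 with smaller steps and from a higher base. It had 39.6, 38.7 and 40.01 FPKM in dcp5-1 at 60 min and 20.6, 22.4 and 21.5 FPKM in dcp5-1 at 0 min, against 51.3, 49.4 and 48.3 FPKM in Col-0 at 60 min and 29.2, 32.7 and 27.3 FPKM in Col-0 at 0 min. Again no group overlapped another. Salt raised CER3 by 0.85 log2 units in dcp5-1 (limma adjusted p = 2.15e-07) and by 0.73 in Col-0 (limma adjusted p = 5.97e-07), and with the trend of differences on transcript length removed the Col-0 value was 0.43 (limma adjusted p = 0.000134). Its level in dcp5-1 was 79.4% of Col-0 at 60 min (log2 difference -0.33, limma adjusted p = 0.000894, or -0.22 with the length trend removed) and 72.4% at 0 min (-0.45, limma adjusted p = 0.00013). The salt responses of the genotypes differed by 0.16 for CER1 (95% interval -0.04 to 0.36, limma adjusted p = 0.224) and by 0.12 for CER3 (95% interval -0.07 to 0.31, limma adjusted p = 0.342), neither of which was called.

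CER4, the reductase that gives primary alcohols, was near the floor of the measurement. Its mean was 0.563 FPKM in dcp5-1 at 60 min, 0.559 in dcp5-1 at 0 min, 0.550 in Col-0 at 60 min and 0.657 in Col-0 at 0 min. CER4 held an estimated 12 to 27 fragments per library. The groups overlapped in each comparison, and fitted without the minimum level CER4 was called in none, so that no difference was detectable at this depth. In that fit of 27544 loci 50.2% were called with salt in dcp5-1 (26.0% higher), 55.1% with salt in Col-0 (27.8% higher), 40.2% between genotypes at 60 min, 35.0% at 0 min and 16.0% for the difference of responses. WSD1 joins alcohols and fatty acids into wax esters. WSD1 had 0.849, 1.14 and 1.03 FPKM in dcp5-1 at 60 min and 0.507, 0.151 and 0.267 FPKM in dcp5-1 at 0 min. It had 1.37, 1.03 and 1.01 FPKM in Col-0 at 60 min and 0.165, 0.0962 and 0.264 FPKM in Col-0 at 0 min. WSD1 held an estimated 2 to 49 fragments per library in all. In both genotypes each WSD1 value at 60 min was above each value at 0 min, while the genotypes overlapped. In the fit without the minimum level WSD1 was higher with salt in dcp5-1 (log2 difference 0.62, limma adjusted p = 0.000667) and in Col-0 (0.86, limma adjusted p = 5.43e-05). The difference of the WSD1 responses was -0.24 (95% interval -0.58 to 0.11, limma adjusted p = 0.353).

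The regulators MYB96 and MYB94 encode R2R3-MYB factors that activate wax genes, MYB96 also acting in ABA signalling. MYB96 had 59.7, 54.2 and 55.8 FPKM in dcp5-1 at 60 min and 41.3, 39.9 and 38.7 FPKM in dcp5-1 at 0 min, against 85.0, 86.2 and 85.2 FPKM in Col-0 at 60 min and 64.1, 63.2 and 67.3 FPKM in Col-0 at 0 min. Salt-treated dcp5-1 libraries were all below the untreated Col-0 libraries. MYB96 rose with salt by 0.49 log2 units in dcp5-1 (limma adjusted p = 2.44e-06) and by 0.39 in Col-0 (limma adjusted p = 1.21e-05), and the Col-0 value was 0.80 with quantile normalization. It stood at 66.2% of Col-0 in dcp5-1 at 60 min (log2 difference -0.59, limma adjusted p = 2.05e-06) and at 61.6% at 0 min (-0.69, limma adjusted p = 7.97e-07). The salt responses differed by 0.10 (95% interval -0.05 to 0.24, limma adjusted p = 0.316).

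MYB94 was less abundant and did not follow MYB96 under salt. MYB94 had 11.2, 8.10 and 10.8 FPKM in dcp5-1 at 60 min and 11.7, 12.3 and 12.4 FPKM in dcp5-1 at 0 min, against 15.03, 15.7 and 14.2 FPKM in Col-0 at 60 min and 16.0, 13.8 and 14.5 FPKM in Col-0 at 0 min. The 3 salt-treated dcp5-1 libraries were lowest and the Col-0 groups overlapped each other. At 60 min MYB94 was at 66.9% of Col-0 in dcp5-1 (log2 difference -0.55, limma adjusted p = 0.000691). Its fall with salt in dcp5-1 was small (-0.26, limma adjusted p = 0.0338) and lost its call in 5 of 20 alternatives, with -0.13 (limma adjusted p = 0.128) without replicate 2 of dcp5-1 at 60 min. Its difference at 0 min (-0.26, limma adjusted p = 0.0459) lost its call in 15 of 20. In Col-0 the salt difference was 0.02 (95% interval -0.20 to 0.24, limma adjusted p = 0.872), and the responses differed by -0.28 (95% interval -0.59 to 0.02, limma adjusted p = 0.165).

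CDEF1 encodes a GDSL-family cutinase, an enzyme that opens the cutin polyester, and it showed the widest gap between the genotypes of the 8. CDEF1 had 5.56, 6.01 and 5.38 FPKM in dcp5-1 at 60 min and 5.09, 4.63 and 5.24 FPKM in dcp5-1 at 0 min. In Col-0 it had 44.5, 44.9 and 45.9 FPKM at 60 min and 22.9, 25.03 and 25.6 FPKM at 0 min. All 6 dcp5-1 libraries lay below all 6 Col-0 libraries, whatever the time. The level in dcp5-1 was 12.5% of that in Col-0 at 60 min (log2 difference -2.79, SE 0.060, limma adjusted p = 2.61e-10) and 20.3% at 0 min (-2.09, SE 0.060, limma adjusted p = 1.25e-09), from 108 to 1210 fragments per library.

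CDEF1 also answered salt less in the mutant. In Col-0 it rose by 0.86 log2 units (SE 0.060, limma adjusted p = 1.17e-07). In dcp5-1 the difference was 0.15 (limma adjusted p = 0.0399), a call that was lost in 11 of 20 alternatives, with 0.07 (limma adjusted p = 0.295) under quantile normalization. The responses differed by -0.70 (SE 0.084, limma adjusted p = 0.000339). The neighbour AT4G30130 overlaps CDEF1 by 10 bases and had 0.42 to 0.89 FPKM over the 12 libraries.

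**Figure D3:**
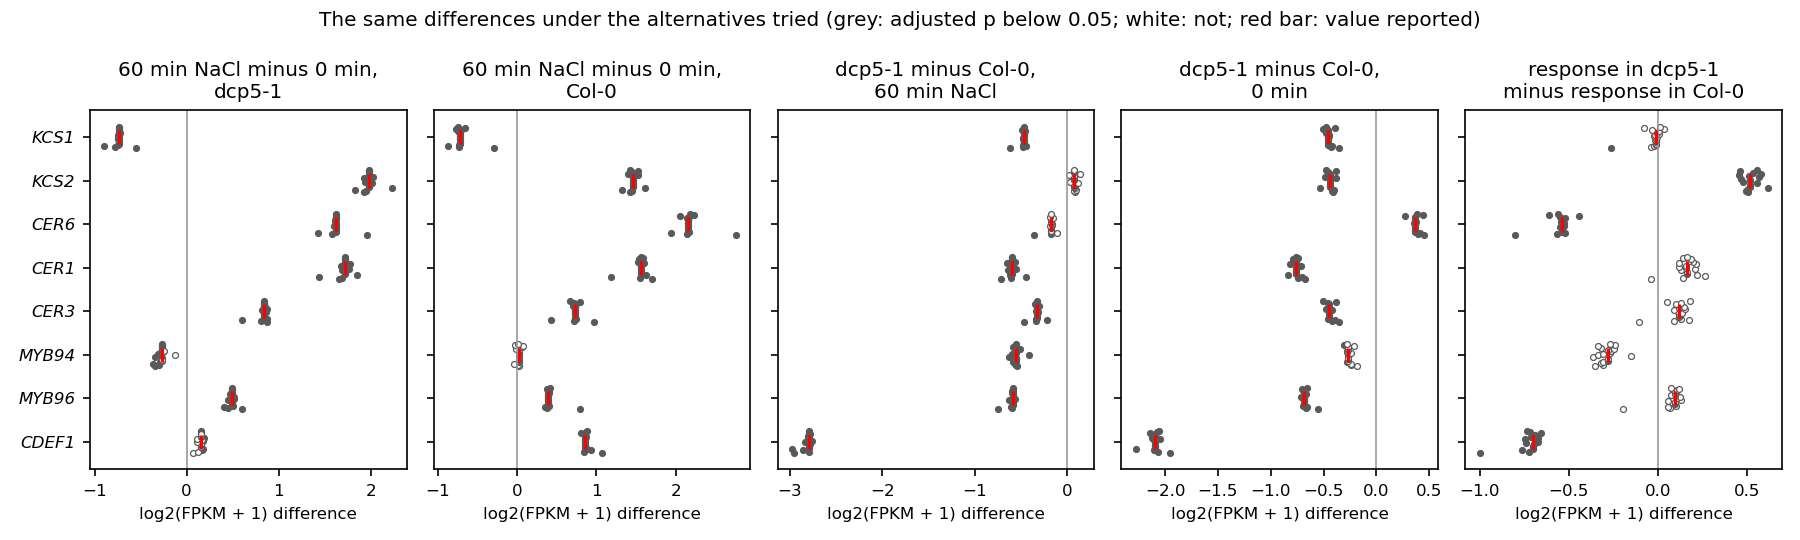
Log2(FPKM + 1) differences of the 8 tested members under each alternative way of processing (points, grey where the adjusted p is below 0.05 and white where not) with the reported value as a red bar, in 5 comparisons. Points of KCS1, KCS2, CER6, CER1, CER3, MYB96 and CDEF1 stay on 1 side of 0 in the salt panels, and those of MYB94 in Col-0 lie on both sides. For CDEF1 with salt in dcp5-1, 11 of the 20 points are white.

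The order of levels changed with salt. In dcp5-1 at 60 min CER6 led, then MYB96 and KCS1, whose libraries overlapped (56.6 ± 2.87 and 56.0 ± 0.551 FPKM, SD, n = 3), followed by CER3, CER1, KCS2, MYB94, CDEF1, WSD1 and CER4. In dcp5-1 at 0 min the order was CER6, KCS1, MYB96, CER3, MYB94, CER1, CDEF1, KCS2, CER4 and WSD1, with no overlap between neighbours. In Col-0 at 60 min it was CER6, MYB96, KCS1, CER3, CDEF1, CER1, KCS2, MYB94, WSD1 and CER4, where KCS2 and MYB94 overlapped. In Col-0 at 0 min CER6 and KCS1 overlapped at the top (133 ± 15.8 and 130.0 ± 10.8 FPKM, SD, n = 3), followed by MYB96, CER3, CDEF1, MYB94, CER1, KCS2, CER4 and WSD1. CDEF1 had rank 5 in both Col-0 groups and stood behind MYB94 in both dcp5-1 groups.

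Markers of epidermis, the tissue that makes wax, did not move as 1 block. ATML1 and PDF2, which encode epidermal homeodomain factors that bind the L1 box, rose with salt in dcp5-1 by 0.65 (limma adjusted p = 5.11e-07) and 0.54 log2 units, and in Col-0 by 1.13 (limma adjusted p = 3.78e-09) and 1.30 log2 units. LTP1, a lipid transfer protein gene, fell by 0.54 in dcp5-1 and fell by 1.18 in Col-0, and PDF1 was not called. Between the genotypes, ATML1 and PDF2 were lower in dcp5-1 than in Col-0 at 60 min (-0.32 and -0.24, limma adjusted p = 0.00037 and 0.00129) and higher at 0 min (0.16 and 0.52, limma adjusted p = 0.0261 and 6.03e-06). LTP1 was higher in dcp5-1 at 60 min (0.41, limma adjusted p = 0.0257) and was not called at 0 min (-0.24), and PDF1 was called at neither time. The 4 markers summed to 5627 to 6094 FPKM at 60 min and 8069 to 8810 FPKM at 0 min in dcp5-1, and to 4143 to 4709 FPKM at 60 min and 8224 to 12320 FPKM at 0 min in Col-0, with LTP1 as nearly all of the sum. Guard cell markers (FAMA and MYB60) summed to 35.6 to 39.7 FPKM in dcp5-1 and 48.6 to 50.0 FPKM in Col-0 at 60 min, and to 33.6 to 37.0 FPKM in dcp5-1 and 31.2 to 35.0 FPKM in Col-0 at 0 min. The 3 root endodermis markers summed to 53.5 to 58.6 FPKM in dcp5-1 and 66.6 to 80.3 FPKM in Col-0 at 60 min, and to 61.5 to 72.2 FPKM in dcp5-1 and 78.6 to 82.0 FPKM in Col-0 at 0 min. The 3 mesophyll markers summed to 3481 to 3642 FPKM in dcp5-1 and 4795 to 5394 FPKM in Col-0 at 60 min, and to 4500 to 4604 FPKM in dcp5-1 and 7429 to 9322 FPKM in Col-0 at 0 min. All 3 were lower in dcp5-1 at both times, where 27.4% of all loci were lower at 60 min and 28.1% at 0 min. Their median log2 difference was -0.30 at 60 min and -0.85 at 0 min. The 3 root hair markers summed to 3.34 to 4.15 FPKM in dcp5-1 and 7.09 to 8.38 FPKM in Col-0 at 60 min, and to 4.73 to 5.43 FPKM in dcp5-1 and 7.30 to 7.96 FPKM in Col-0 at 0 min. Over all tissues, 14 markers were tested. In dcp5-1 against Col-0, 11 of them were lower and 1 higher at 60 min, and 7 were lower and 2 higher at 0 min. The part of these markers in the differences of the wax genes was not tested.

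Other genes of the pathway were taken from a list of 69, of which 58 were tested. With salt 26 were higher, 19 lower and 13 not called in dcp5-1 (median log2 difference 0.12), and 26 were higher, 22 lower and 10 not called in Col-0 (median 0.08). In dcp5-1 against Col-0, 2 were higher, 40 lower and 16 not called at 60 min (median -0.37), and 6 were higher, 39 lower and 13 not called at 0 min (median -0.34). The salt response differed for 24, being more positive in dcp5-1 for 11 and less so for 13. The 11 became 7 without replicate 3 of dcp5-1 at 60 min, replicate 2 of dcp5-1 at 0 min or replicate 3 of Col-0 at 60 min, and the 13 became 21 with quantile normalization. The 2 higher at 60 min became 1 with quantile normalization and without replicate 1 or 2 of dcp5-1 or replicate 1 or 3 of Col-0 at 60 min. The shares and medians over all loci given above are the background for these counts. With salt 35.1% of all loci were higher and 31.6% lower in dcp5-1, and 36.3% higher and 35.7% lower in Col-0. In dcp5-1 against Col-0, 27.1% were higher and 27.4% lower at 60 min, and 18.8% higher and 28.1% lower at 0 min. The salt response differed for 24.4% of all loci, being more positive in dcp5-1 for 16.3% and less so for 8.06%.

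Among the 20 tested elongation genes 13 were higher and 2 lower with salt in dcp5-1, and 13 were higher and 4 lower in Col-0. With salt 35.1% of all loci were higher and 31.6% lower in dcp5-1, and 36.3% higher and 35.7% lower in Col-0. In dcp5-1 against Col-0, 2 of the 20 were higher and 12 lower at 60 min (median log2 difference -0.32). At 0 min 4 were higher and 11 lower (median -0.23). Of all loci, 27.1% were higher and 27.4% lower at 60 min, and 18.8% higher and 28.1% lower at 0 min. CER2, which CER6 needs for the longest chains, had 107 ± 3.38 FPKM at 60 min and 35.6 ± 0.899 FPKM at 0 min in dcp5-1 (log2 difference 1.56, limma adjusted p = 1.38e-09), and 116 ± 5.40 FPKM at 60 min and 30.3 ± 2.64 FPKM at 0 min in Col-0 (1.90, limma adjusted p = 2.29e-10; SD, n = 3 each). Like CER6 it was higher in dcp5-1 at 0 min (0.23, limma adjusted p = 0.0101) and had the smaller response there (-0.34, limma adjusted p = 0.0161). CER10, the enoyl reductase of elongation, and CER26, a relative of CER2, were also higher in dcp5-1 at 0 min (0.33 and 0.27, limma adjusted p = 0.0021 and 0.0107). KCR1, the ketoacyl reductase, was 1 of the 2 list genes higher in dcp5-1 at 60 min (0.19, limma adjusted p = 0.00617), a call lost with quantile normalization (0.05), and KCS4 was the other (0.21, limma adjusted p = 0.0321), a call lost in 4 of 20 alternatives.

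KCS8, a further member of the condensing enzyme family, had 6.81 ± 0.225 FPKM in dcp5-1 and 17.4 ± 1.96 FPKM in Col-0 at 0 min (SD, n = 3; log2 difference -1.23, limma adjusted p = 1.99e-07). LACS1, which loads long fatty acids onto coenzyme A, rose with salt in both genotypes but less in dcp5-1 (0.49 in dcp5-1 and 1.23 in Col-0, difference -0.74, limma adjusted p = 0.00715). Of 5 tested export genes, 4 were higher with salt in dcp5-1 and 3 in Col-0, where 35.1% and 36.3% of all loci were. ABCG12, a wax exporter of the plasma membrane, had 68.5, 66.8 and 67.7 FPKM in dcp5-1 at 60 min and 23.9, 23.8 and 23.6 FPKM in dcp5-1 at 0 min. In Col-0 ABCG12 had 107, 106 and 110.3 FPKM at 60 min and 22.1, 24.2 and 24.6 FPKM at 0 min. The genotypes overlapped at 0 min and were apart at 60 min, and the response was smaller in dcp5-1 (difference of responses -0.67, limma adjusted p = 0.000123). Its partner ABCG11 rose by 0.79 in dcp5-1 and by 1.46 in Col-0 (difference -0.68, limma adjusted p = 7.77e-05).

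**Figure D4:**
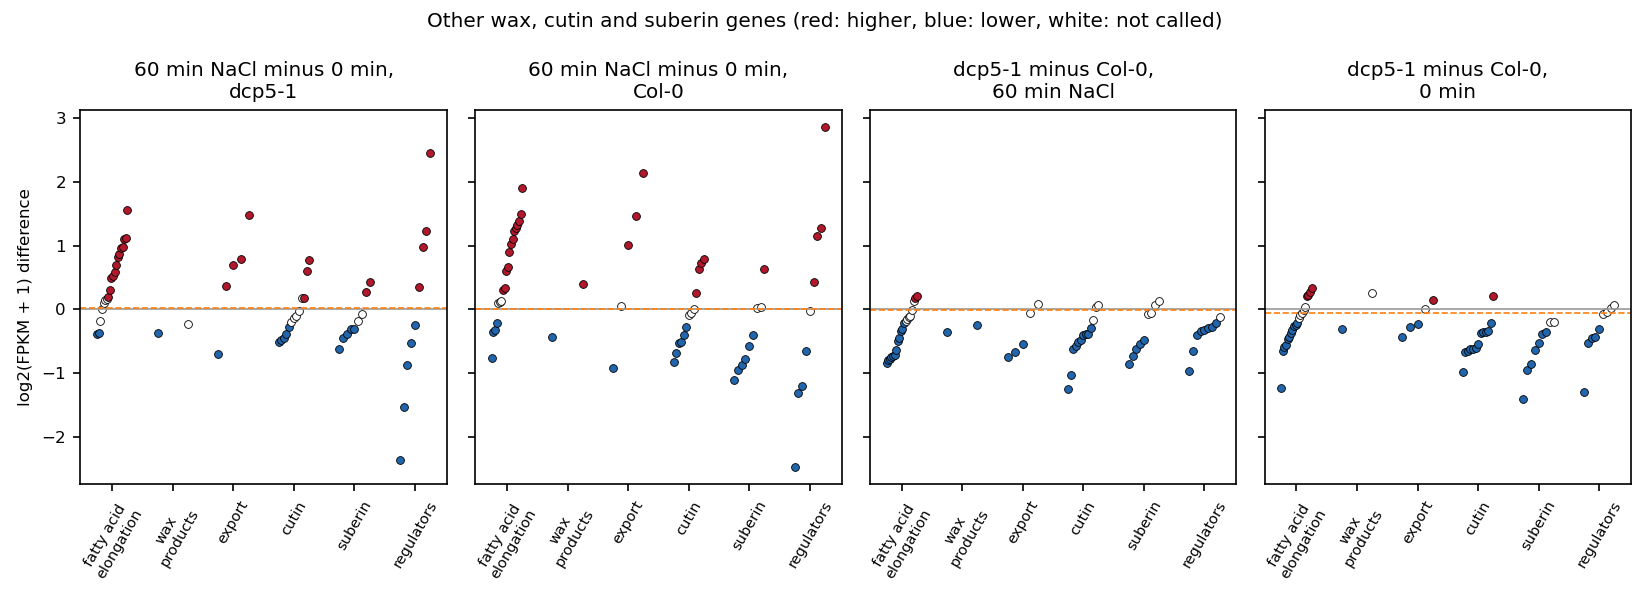
Log2(FPKM + 1) differences of the 58 other wax, cutin and suberin genes that were tested, 1 point per gene by role, red where called higher, blue where called lower and white where not called, in 4 comparisons, with the median of all tested loci dashed. With salt 13 of 20 elongation genes were called higher in each genotype, beside 35.1% of all tested loci in dcp5-1 and 36.3% in Col-0. In the panels of dcp5-1 minus Col-0, 40 of 58 genes were called lower at 60 min and 39 of 58 at 0 min. Of all tested loci, 27.4% were called lower at 60 min and 28.1% at 0 min.

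Of 13 tested cutin genes, 10 were lower and none higher in dcp5-1 than in Col-0 at 60 min, where 27.4% of all loci were lower, and 12 were lower and 1 higher at 0 min, where 28.1% were lower. With salt 3 were higher and 5 lower in dcp5-1, and 4 were higher and 6 lower in Col-0, beside the shares of all loci (35.1% and 31.6% in dcp5-1, 36.3% and 35.7% in Col-0). DCR, an acyltransferase of cutin synthesis, had 6.58 ± 0.255 FPKM in dcp5-1 and 14.4 ± 1.11 FPKM in Col-0 at 60 min (SD, n = 3; log2 difference -1.02, limma adjusted p = 7.82e-07). AT5G33370 had 1.02 ± 0.0928 FPKM in dcp5-1 and 3.79 ± 0.208 FPKM in Col-0 at 60 min (SD, n = 3; -1.25, limma adjusted p = 4.67e-07), and it was lower with salt in dcp5-1 (-0.44, limma adjusted p = 0.000456) and higher in Col-0 (0.26, limma adjusted p = 0.0125). CYP86A4, a fatty acid hydroxylase of cutin, was lower with salt in Col-0 (-0.68, limma adjusted p = 1.39e-05) and was not called in dcp5-1 (-0.03). Of 9 suberin genes 5 were lower and none higher in dcp5-1 than in Col-0 at 60 min (27.4% of all loci lower), and 7 were lower and none higher at 0 min (28.1% of all loci lower). With salt 2 of the 9 were higher and 5 lower in dcp5-1, and 1 was higher and 6 lower in Col-0. The shares of all loci with salt are those given for the cutin genes. CYP86A1, the hydroxylase of root suberin, had 9.00 ± 0.522 FPKM in dcp5-1 and 25.5 ± 2.99 FPKM in Col-0 at 0 min (SD, n = 3; -1.40, limma adjusted p = 2.4e-07). ASFT, which adds ferulate to suberin, fell with salt in dcp5-1 (-0.38, limma adjusted p = 0.000804) and in Col-0 (-0.95, limma adjusted p = 3.27e-07).

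Of the 2 tested genes listed with wax products, AT5G12420 was lower with salt in dcp5-1 (-0.36, limma adjusted p = 0.00175) and in Col-0 (-0.42, limma adjusted p = 0.000466). AT3G49210 was higher with salt in Col-0 (0.40, limma adjusted p = 0.00469), a call lost with the length trend removed (0.24, limma adjusted p = 0.0529), and had -0.22 in dcp5-1 (limma adjusted p = 0.0816). The dcp5-1 difference was called in 5 of 20 alternatives, among them removal of the length trend (-0.38, limma adjusted p = 0.00588) and quantile normalization (-0.30, limma adjusted p = 0.0189). Among 9 other regulators tested, 4 were higher and 5 lower with salt in dcp5-1, and 4 were higher and 4 lower in Col-0, beside 35.1% and 31.6% of all loci in dcp5-1 and 36.3% and 35.7% in Col-0. In dcp5-1 against Col-0, 8 of these regulators were lower at 60 min and 5 at 0 min, and none was higher. Of all loci, 27.4% were lower at 60 min and 28.1% at 0 min. MYB41, a stress-induced regulator of cuticle and suberin genes, had 9.95 ± 1.17 FPKM at 60 min and 1.01 ± 0.220 FPKM at 0 min in dcp5-1 (log2 difference 2.45, limma adjusted p = 6.34e-09), and 12.7 ± 0.734 FPKM at 60 min and 0.905 ± 0.248 FPKM at 0 min in Col-0 (2.85, limma adjusted p = 1.41e-09; SD, n = 3 each). DEWAX, an ERF factor that represses wax genes, had 37.1, 38.1 and 39.5 FPKM in dcp5-1 at 60 min and 70.6, 67.5 and 74.4 FPKM in dcp5-1 at 0 min. In Col-0 DEWAX had 78.4, 76.7 and 71.8 FPKM at 60 min and 160.1, 192 and 172 FPKM at 0 min.

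DEWAX was lower both with salt and in the mutant. Its log2 difference with salt was -0.87 in dcp5-1 (limma adjusted p = 3.28e-07) and -1.19 in Col-0 (limma adjusted p = 1.7e-08; -0.74 with quantile normalization), and between dcp5-1 and Col-0 it was -0.97 at 60 min (limma adjusted p = 7.29e-07) and -1.29 at 0 min (limma adjusted p = 9.2e-08). MYB30, an activator of long-chain fatty acid genes in defence, fell by 1.52 log2 units in dcp5-1 (limma adjusted p = 1.66e-09) and fell by 1.30 in Col-0 (limma adjusted p = 4.65e-09). AT5G07580 fell by 2.36 in dcp5-1 (limma adjusted p = 2.34e-09) and fell by 2.46 in Col-0 (limma adjusted p = 1.3e-09), the steepest falls of the list.

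For each tested member the loci with the most similar pattern were looked up by Pearson r of log2(FPKM + 1) over the 12 libraries, among 8352 tested nuclear loci with a symbol. These r values describe 12 libraries in 4 groups and carry no test. CER6 was matched most closely by CER2 (r = 0.998) and RD20 (0.994). CER1 was nearest to WRKY6 and ZAT (0.998 each), and CER3 to TSB1 and ABCE2 (0.997 each). KCS1 paired with MYBR1 (0.995) and LHB1B1 (0.993), and KCS2 with EBS5 (0.995) and MNS3 (0.993). MYB96 paired with JAZ3 (0.995) and MAM1 (0.993), while MYB94 had looser neighbours, LOX6 (0.957) and FAR4 (0.920). CDEF1 lay closest to PHOT1 (0.992) and VTE5 (0.990), whose own gaps were smaller: PHOT1 had a mean of 21.9 FPKM in dcp5-1 and 44.0 FPKM in Col-0 at 60 min, and 19.9 FPKM in dcp5-1 and 36.5 FPKM in Col-0 at 0 min.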

How the data were processed

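The deposited table, made by the authors, holds FPKM for 38088 loci in 12 columns, 1 per library, and no column was left unmapped. Per the submitters' processing notes, Bowtie and the TAIR10 genome were used. Which program counted the fragments, with which annotation and use of strand, is not given in the sources used here. Gene names, coordinates and promoters came from the RefSeq TAIR10.1 annotation, which matched 37792 loci.

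The FPKM values were analysed as log2(FPKM + 1) where a locus averaged 1 FPKM or more over all libraries (19876 loci). A model of group means used limma 3.58.1 (R 4.3.3) and a variance trend on mean level (8 residual and 3.29 prior degrees of freedom), two-sided tests and Benjamini-Hochberg adjustment over all loci tested. The fit was tested on simulated data. Fragments were recovered from FPKM steps in 10860 genes with 1 transcript over 1000 nt. There 99.1% to 99.6% of values below 10 fragments lay within 0.1 of a whole number. Fragment numbers of members were estimated from the longest transcript, and CER4 and WSD1 have 2 and 4 transcript structures. Fragments were not used for a count test. Look-alikes were found with BLAST+ 2.17.0, and tables and figures were made in Python 3.11.15 (pandas 2.3.3, numpy 2.4.6, matplotlib 3.10.9).

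The members, the lists and the rule were chosen with earlier results of these data known. Named are all members, per comparison the 3 called list genes with the largest rise and fall, genes of roles with 3 or fewer tested, and per member the 2 nearest loci with a symbol. Alternatives were quantile and median ratio scaling, other pseudocounts and filters, removal of a transcript length trend, a replicate block, fits on the compared libraries only and leaving out each library. The labels do not say that a replicate number is a shared batch, so replicate numbers were not taken to pair libraries. Same-numbered libraries deviated from group means with r from -0.103 to 0.18, and with 0.18, 0.0801 and 0.109 for salt in dcp5-1. Protein sequences were not used here.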

Additional observations from a re-analysis of the deposited data

Results flagged for a closer look

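The salt response differed between dcp5-1 and Col-0, by the interaction term of the limma fit, for 3 members and for the list genes named for the largest such differences. The response in dcp5-1 minus that in Col-0, on the log2(FPKM + 1) scale, was 0.52 for KCS2, -0.54 for CER6 and -0.70 for CDEF1 (limma adjusted p = 0.00894, 0.00373 and 0.000339). It was -0.74 for LACS1, -0.70 for AT5G33370 and -0.68 for ABCG11 (limma adjusted p = 0.00715, 0.00185 and 7.77e-05). It was 0.65 for CYP86A4, 0.57 for ASFT and 0.55 for CYP86A1 (limma adjusted p = 0.00291, 0.00343 and 0.00595). These last 3 genes fell with salt in Col-0, while in dcp5-1 ASFT and CYP86A1 fell by less and CYP86A4 was not called. AT5G33370 fell in dcp5-1 and rose in Col-0, whereas LACS1 and ABCG11 rose in both.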

How the results depend on the processing

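Of 792 member differences recomputed under up to 20 alternatives, 12 of which leave out 1 library, 745 kept direction and side of the threshold, 31 lost their call, 6 gained one and 10 changed sign. The calls of KCS2, CER6 and CDEF1 for a different salt response held under all alternatives run. The changes of sign were all of differences that were not called. The MYB94 salt difference in Col-0 was -0.038 with the length trend removed and ran from -0.024 to 0.076 over left-out libraries. With quantile normalization the difference of salt responses was -0.037 for CER1, -0.11 for CER3 and -0.19 for MYB96. Over left-out libraries it ran from -0.077 to 0.034 for KCS1, from -0.036 to 0.12 for AT5G12420 and from -0.064 to 0.0082 for DCP5, which had 0.011 with the length trend removed and -0.44 with quantile normalization, where it was called (limma adjusted p = 0.00045).

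The count of members lower with salt in dcp5-1 was 1 instead of 2 without a minimum level or with only the compared libraries, and ran from 1 to 2 over left-out libraries. Quantile normalization gave 2033 loci with a more positive and 2077 with a less positive response in dcp5-1 than in Col-0, against 3248 and 1602. It gave 4796 higher and 4496 lower loci at 0 min in dcp5-1, against 3731 and 5582. The cause was not tested. With the replicate number as a block, CDEF1 with salt in dcp5-1 (limma adjusted p = 0.0561) and MYB94 at 0 min (0.0513) lost their calls. Members higher with salt in dcp5-1 then numbered 5, as with quantile normalization and median ratio scaling. CER4 and WSD1, at an estimated 2 to 49 fragments, were too shallow for small differences.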
